A study of Mus musculus with 14 samples.

Results

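Genes beside pericentromeric heterochromatin were taken here as the genes of chromosomes 1 to 19 that start less than 13 Mb from the first base of the GRCm38 assembly (GENCODE M21) and are listed in both kinds of deposited count file. There were 1164 such genes, called centromere-side genes below, of 17487 genes listed in both kinds of file. They were compared with 15790 distal genes of the same chromosomes that start at or beyond 13 Mb. The choice used position and no measured value. The last centromere-side gene by start was Trim28 on chromosome 7 (start 12999114), with log2 fold changes of -0.25 for hairpin 1 and 0.03 for hairpin 2. The first distal gene was its neighbour Zbtb45 (start 13003898), with -0.10 and 0.27.

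RNA was sequenced from mouse small-intestinal tumor organoids, 3-dimensional epithelial cultures that the labels call APT organoids without defining APT. They carried a doxycycline-inducible short hairpin RNA against Suv4-20h2, listed as the gene Kmt5c, or a control hairpin titled shCtrl. Set 1 consisted of 3 control 1 and 3 hairpin 1 libraries, the hairpin being directed at exon 4 by the series' design text. Set 2 consisted of 4 control 2 and 4 hairpin 2 libraries, with a hairpin directed at exon 9. Doxycycline at 0.5 µg/ml was present for 4 days in all 4 groups, controls too. The labels tie each hairpin and its control to 1 clone number, so clone, hairpin and set cannot be told apart, and the sets share no control library. The labels do not state whether replicates are separate cultures, and the p-values below measure only the spread between libraries, which may be technical.

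As background, mouse chromosomes carry the centromere at one end, where long arrays of satellite repeats are packed into pericentromeric heterochromatin. Suv39h enzymes methylate histone H3 there, the protein HP1 binds that mark, and Suv4-20h2 then trimethylates a lysine of histone H4. The repeats themselves were not analysed here: the values below belong to the unique genes that follow them.

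Total counts ran from 9272134 to 26284079 per library. All 9 intestinal epithelial markers (Epcam, Cdh1, Krt8, Krt18, Krt19, Vil1, Cdx1, Cdx2 and Hnf4a) averaged at least 1 CPM (read counts scaled to a common library size) in both sets. Their summed level was 5602 to 7264 CPM in control 1 and 5892 to 7065 CPM in hairpin 1. It was 5909 to 6024 CPM in control 2 and 4502 to 5188 CPM in hairpin 2, where the groups did not overlap. Hairpin 1 replicate 1 stood apart: its summed level was 243.5 CPM for 4 squamous, 49.9 CPM for 4 endothelial and 54.8 CPM for 5 immune markers, against at most 17.6, 2.74 and 39.4 CPM in control 1. Single genes carried these sums, with 219.8 CPM of Ivl, 49.6 CPM of Cdh5 and 53.9 CPM of Cd68 in that library. Krt5, Trp63, Pecam1, Kdr, Tek and Ptprc stayed below 1 CPM in each library of set 1. The fibroblast markers Dcn and Lum were at 0 in set 1. In set 2, of the 3 listed fibroblast markers, Pdgfra was at 8.83 to 11.3 CPM in control 2 and 13.7 to 15.3 CPM in hairpin 2, while Col1a1 and Col3a1 were below 1 CPM in both groups. The replicate 4 libraries of set 2 stood apart from replicates 1 to 3.

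The centromere-side genes were spread unevenly: chromosome 19 held 265, chromosome 11 held 100, chromosome 7 held 95 and chromosome 3 only 24. Of the 1164, 939 (80.67%) were protein coding, against 80.39% of the distal genes. The edgeR filter on low counts kept 886 (76.12%) in set 1 and 953 (81.87%) in set 2, and 30 and 17 had no count in the respective set. Per kilobase of exon, the median level of the tested genes in the controls was 6.10 CPM in set 1 and 5.79 CPM in set 2. The distal genes had 5.97 and 6.33 CPM per kilobase.

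The 250 bases before the RefSeq start site were available (RefSeq, GRCm38.p6) for 732 of the centromere-side and 10773 of the distal genes. The median GC content was 59.2% and 59.6%, and the median number of CpG dinucleotides was 15 in both. The 27 centromere-side genes that fell with hairpin 2, of which 21 had a sequence, held a median of 7 CpG dinucleotides. The 12 that rose, of which 10 had a sequence, held a median of 27. The called distal genes differed in the same direction and by less, with 11 for the 512 that fell and 19 for the 272 that rose. The GC box GGGCGG, searched on both strands, lay in 42.9% of the lowered and 60.0% of the raised centromere-side promoters, against 55.3% of all centromere-side, 56.8% of distal and 32.7% of all RefSeq promoters. The HNF4 motif CAAAGTCCA, searched on both strands and able to share at most 1 base with a GC box, lay in 0.546% of the centromere-side, 0.306% of the distal and 0.384% of all promoters. Of the 21 lowered promoters it lay in 4.76%, which was Tmem150b alone. These matches describe letters, not bound sites. The targeted gene, 4 genes that fell with hairpin 2 and 3 that rose are shown 5′ to 3′ on the strand of the gene, with every CpG in capitals, since the number of CpG differs between the lowered and the raised promoters. They are Kmt5c (chr7:4739877-4740126, plus strand), Tmem150b (chr7:4725252-4725501, minus), Ptprh (chr7:4604042-4604291, minus), Itih5 (chr2:10153293-10153542, plus), Ms4a8a (chr19:11081104-11081353, minus), Rhob (chr12:8500010-8500259, minus), Igfbp3 (chr11:7213924-7214173, minus) and Purb (chr11:6476077-6476326, minus).
Kmt5c: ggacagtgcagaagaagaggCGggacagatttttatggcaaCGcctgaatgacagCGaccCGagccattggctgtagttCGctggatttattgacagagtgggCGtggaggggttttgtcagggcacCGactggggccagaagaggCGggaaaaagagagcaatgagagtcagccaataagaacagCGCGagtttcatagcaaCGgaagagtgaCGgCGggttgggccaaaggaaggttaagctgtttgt
Tmem150b: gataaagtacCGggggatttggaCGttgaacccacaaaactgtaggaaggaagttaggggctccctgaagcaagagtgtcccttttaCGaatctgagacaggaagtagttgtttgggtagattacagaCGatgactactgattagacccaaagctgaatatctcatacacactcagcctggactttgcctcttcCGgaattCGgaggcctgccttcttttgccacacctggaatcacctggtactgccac
Ptprh: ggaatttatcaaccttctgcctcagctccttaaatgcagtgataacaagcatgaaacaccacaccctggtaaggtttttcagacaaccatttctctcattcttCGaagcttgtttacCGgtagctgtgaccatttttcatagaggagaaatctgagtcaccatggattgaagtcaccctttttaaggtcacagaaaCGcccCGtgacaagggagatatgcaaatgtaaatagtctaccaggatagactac
Itih5: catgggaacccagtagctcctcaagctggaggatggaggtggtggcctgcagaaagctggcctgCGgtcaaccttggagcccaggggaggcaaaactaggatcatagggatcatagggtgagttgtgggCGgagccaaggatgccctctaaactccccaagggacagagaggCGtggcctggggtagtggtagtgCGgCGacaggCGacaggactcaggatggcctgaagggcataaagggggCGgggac
Ms4a8a: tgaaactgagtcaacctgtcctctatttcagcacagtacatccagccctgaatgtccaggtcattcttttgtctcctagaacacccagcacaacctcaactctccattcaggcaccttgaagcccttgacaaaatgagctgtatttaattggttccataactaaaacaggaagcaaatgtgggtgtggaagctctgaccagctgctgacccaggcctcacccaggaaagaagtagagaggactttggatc
Rhob: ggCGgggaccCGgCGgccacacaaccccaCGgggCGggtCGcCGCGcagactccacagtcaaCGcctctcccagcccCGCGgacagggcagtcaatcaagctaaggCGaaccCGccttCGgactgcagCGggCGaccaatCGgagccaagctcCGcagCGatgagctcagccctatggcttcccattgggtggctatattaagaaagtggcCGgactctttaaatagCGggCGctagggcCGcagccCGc
Igfbp3: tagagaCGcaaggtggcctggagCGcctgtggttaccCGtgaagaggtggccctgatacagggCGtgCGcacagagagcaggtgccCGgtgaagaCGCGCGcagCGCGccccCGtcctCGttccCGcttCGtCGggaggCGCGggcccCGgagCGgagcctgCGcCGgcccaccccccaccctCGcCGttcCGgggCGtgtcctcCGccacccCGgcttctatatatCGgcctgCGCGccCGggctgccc
Purb: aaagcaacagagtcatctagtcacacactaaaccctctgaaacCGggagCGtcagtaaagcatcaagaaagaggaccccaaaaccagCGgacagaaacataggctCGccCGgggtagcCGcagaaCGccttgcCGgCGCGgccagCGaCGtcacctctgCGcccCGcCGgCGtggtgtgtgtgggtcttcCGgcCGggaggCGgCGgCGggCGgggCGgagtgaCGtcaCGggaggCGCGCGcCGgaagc
Kmt5c held 13 CpG. The lowered Tmem150b, Ptprh, Itih5 and Ms4a8a held 6, 4, 7 and 0, and the raised Rhob, Igfbp3 and Purb held 24, 32 and 29. These promoters are examples shown by no stated rule, and each lowered one is at or below the median of 7. Only the medians of 7 and 27 cover all 21 lowered and 10 raised promoters.

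The targeted gene is itself a centromere-side gene (ENSMUSG00000059851, chromosome 7, 4740115 to 4747514). Kmt5c had 72.3, 75.8 and 67.3 CPM in control 1 and 53.6, 64.3 and 56.1 CPM in hairpin 1. It had 129, 121, 116 and 128 CPM in control 2 and 114, 111, 99.3 and 106 CPM in hairpin 2. Both hairpins lay below every control library of their set, but neither difference passed edgeR's quasi-likelihood test with Benjamini-Hochberg adjustment (log2 fold change -0.31, SE 0.175, adjusted p = 0.80 for hairpin 1, and -0.20, SE 0.062, adjusted p = 0.098 for hairpin 2). Once the replicate number was added as a block, a pairing that the labels do not state, hairpin 2 passed at -0.20 (edgeR adjusted p = 0.0074). Kmt5b, which encodes the related enzyme Suv4-20h1, is a centromere-side gene of chromosome 19 and had log2 fold changes of -0.08 (adjusted p = 0.96) and 0.14 (adjusted p = 0.43, and 0.043 with the block, edgeR). Its hairpin 1 value changed sign with 1 library left out, to 0.14 when control 1 replicate 3 was dropped, and to 0.03 or 0.15 when hairpin 1 replicate 2 or 3 was.

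The gene nearest the centromeric end of each chromosome was taken among those that averaged at least 5 CPM in set 1 and in set 2. Of these 19 genes, 0 passed for hairpin 1 (edgeR, background 0.0% of all genes tested) and 1 passed for hairpin 2 (background 6.05%). Their log2 fold changes ran from -0.71 to 0.54 with a median of 0.05 for hairpin 1, and reached 0.41 with a median of -0.02 for hairpin 2. The gene that passed was Selenop on chromosome 15, which encodes a secreted selenium carrier. Selenop had 16.3, 17.1, 15.3 and 17.1 CPM in control 2 and 21.4, 21.9, 24.2 and 20.1 CPM in hairpin 2, with no overlap (log2 fold change 0.41, SE 0.082, edgeR adjusted p = 0.016). Its exons overlap those of Ccdc152 on the other strand, so its count is uncertain. The remaining 18 include Sox17, an endoderm transcription factor, on chromosome 1 (0.16 and 0.10 for hairpins 1 and 2), and Cdk6, a kinase of the cell cycle, on chromosome 5 (0.01 and 0.10). Gdi2, a regulator of Rab proteins on chromosome 13, was at 0.01 and -0.02. Mthfd1l, a mitochondrial folate enzyme on chromosome 10, averaged 122.5 ± 6.23 CPM (SD, n = 4) in control 2 against 139.9 ± 3.35 CPM (SD, n = 4) with hairpin 2. Its groups did not overlap, and its edgeR adjusted p was 0.066, or 0.0082 with the replicate block. With the block the respiratory subunit gene Ndufa3 (-0.23, edgeR adjusted p = 0.032) passed too.

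With hairpin 1, 0 of 886 centromere-side genes passed the threshold of an adjusted p of 0.05 (edgeR; background 0.0%). At an unadjusted p under 0.05 there were 61 (6.88%), against a background of 5.41% of all 13540 genes tested and 5.37% of the distal genes. DESeq2's Wald test called 2, Myl7 and Rcor2, both lower (background 0.127%). The model of all 14 libraries, which shares 1 estimate of the spread between the sets, called 18 (background 1.24%), of which 8 were higher (background 0.698%) and 10 lower (background 0.545%). The hairpin and control libraries did not overlap for 114 genes (12.9%), against a background of 12.8%. The fitted log2 fold change was above 0 for 47.9% of the centromere-side genes, with a median of -0.01, against 52.5% and 0.03 over all genes tested.

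The centromere-side genes with the smallest unadjusted p for hairpin 1 are given as values, since none passed edgeR's test (adjusted p = 0.80 for each). Rcor2, a corepressor partner of the histone demethylase LSD1, had 131, 122 and 158 CPM in control 1 and 64.0, 60.2 and 46.8 CPM in hairpin 1 (log2 fold change -1.27, SE 0.205). Myl7, an atrial myosin light chain, had 93.6, 52.4 and 52.5 CPM against 7.24, 11.8 and 19.4 CPM (-2.37, SE 0.429). In both genes every hairpin 1 library lay below every control 1 library. Tcirg1, a subunit of the proton pump of osteoclasts and lysosomes, was at -0.92, Epn1, an endocytic adaptor, at -0.80, and Doc2g at -1.24. On the higher side, Casd1, which acetylates sialic acids, had 3.38, 1.77 and 5.27 CPM in control 1 and 11.1, 13.1 and 10.7 CPM in hairpin 1 (1.75, SE 0.446). The Wnt receptor gene Fzd1 was at 1.18, the syntenin gene Sdcbp at 0.74, the sorting nexin gene Snx9 at 0.63 and the intestinal cadherin gene Cdh17 at 0.71. Without hairpin 1 replicate 1, the library that stood apart, Rcor2 was at -1.36, Myl7 at -2.09 and Casd1 at 1.78, while Fzd1 was at 0.83, Sdcbp at 0.55, Snx9 at 0.55 and Cdh17 at 0.53. Cdk14, a kinase gene that rose with hairpin 2, had 41.5 CPM in hairpin 1 replicate 1 and at most 1.28 CPM in the other 5 libraries of set 1.

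With hairpin 2, 39 of 953 centromere-side genes passed (4.09%, edgeR), a smaller share than the background of 6.05% of all 14126 genes tested, the 6.15% of the distal genes and the 5.75% of genes in the last 10 Mb of the chromosomes. Of the 39, 27 fell (2.83%, background 4.01%) and 12 rose (1.26%, background 2.04%). The groups did not overlap for 114 genes, against a background of 15.3%. At an unadjusted p under 0.05 there were 150 (15.7%, background 19.8%). DESeq2's Wald test called 64 (background 8.12%) and the model of all 14 libraries 5 (background 0.798%). A replicate block raised the count to 158 (16.6%, background 20.4%), of which 81 were higher (background 10.2%) and 77 lower (background 10.1%). Without both replicate 4 libraries it was 134 (14.1%, background 16.9%). With 1 library left out, the count was 21 without control 2 replicate 1 (background 3.6%) and 21 without its replicate 2 (background 3.16%). It was 23 without hairpin 2 replicate 1 (background 3.66%), 23 without its replicate 2 (background 3.29%) and 66 without its replicate 4 (background 9.84%). In each of the 15 fits of set 2 the share of centromere-side genes called was below that of all genes. The decreases were larger than the increases: 12 genes fell by more than 2-fold and 5 of them by more than 4-fold, while 1 rose by more than 2-fold. Many of these large changes were at low levels. Of the 5, Ptprh, Il15ra and Tmem150b averaged 0.72, 1.29 and 2.69 CPM in control 2, and Itih5 and Ms4a8a 17.4 and 48.6 CPM. Tfpi2, the gene that rose, averaged 0.74 CPM there. The median log2 fold change was -0.89 among the genes that fell and 0.34 among those that rose, against -1.02 and 0.35 among the called distal genes. In bulk RNA, fewer cells of a type and less RNA per cell cannot be told apart.

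The largest decreases among genes averaging at least 5 CPM were those of Itih5, Ms4a8a, Oit1 and Pfkp. Itih5, which encodes a stabilizer of the hyaluronan matrix, had 15.1, 16.4, 16.2 and 21.8 CPM in control 2 and 0.401, 0.276, 2.38 and 1.41 CPM in hairpin 2 (log2 fold change -4.32, SE 0.438, edgeR adjusted p = 3.4e-04). Ms4a8a, a membrane protein gene, had 35.5, 41.7, 38.6 and 78.8 CPM against 7.31, 6.59, 7.90 and 9.22 CPM (-2.67, SE 0.263, adjusted p = 3.0e-04). Both genes lay lower in every hairpin 2 library than in any control 2 library, and control 2 replicate 4 had the highest value of each. Oit1 had 18.6, 23.0, 19.5 and 34.8 CPM against 6.24, 7.06, 5.41 and 5.98 CPM (-1.94, SE 0.204, edgeR adjusted p = 4.2e-04). Pfkp, the platelet form of the glycolytic enzyme phosphofructokinase, had 185, 181, 202 and 221 CPM against 42.2, 43.7, 49.7 and 78.1 CPM (-1.89, SE 0.179, edgeR adjusted p = 2.3e-04). Each hairpin 2 library of these 2 genes was again below all controls. Oit1, Ms4a8a and Pfkp passed in all 8 fits that left out 1 library, as did Itih5. The same genes had overlapping groups or too few counts in set 1: Ms4a8a was at -0.40, Oit1 at -0.27 and Pfkp at -0.18 (edgeR adjusted p = 0.90, 0.94 and 0.96), while Itih5 was not tested there. These set 1 values rest on hairpin 1 replicate 1: without it Ms4a8a was at 0.05, Oit1 at 0.22 and Pfkp at -1.21 (edgeR adjusted p = 0.94, 0.74 and 0.10). Pfkp had 659 CPM in that library and 145 and 173 CPM in the other hairpin 1 libraries, against 517, 297 and 294 CPM in control 1.

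Smaller decreases included those of Cdh17, Birc3 and Cpt1a. Cdh17, which encodes the liver-intestine cadherin of gut epithelium, had 256, 260, 268 and 328 CPM in control 2 and 205, 193, 203 and 173 CPM in hairpin 2 (-0.52, SE 0.090, edgeR adjusted p = 0.0075). Birc3 encodes an inhibitor of apoptosis that also regulates NF-kappaB signalling. It had 16.95, 18.8, 19.9 and 15.3 CPM against 10.97, 11.4, 10.6 and 8.88 CPM (-0.75, SE 0.114, edgeR adjusted p = 0.0038). For both, all 4 hairpin 2 libraries were below all 4 controls. Pla2g3, a secreted phospholipase, fell by 1.06 on the log2 scale, Cdc42ep2, an effector of the small GTPase Cdc42, by 0.89, Smtn, the actin-binding smoothelin gene, by 0.66 and Greb1l by 0.60. Cpt1a, the entry enzyme of mitochondrial fatty acid oxidation, had 54.0, 55.2, 56.5 and 63.7 CPM against 38.9, 40.1, 43.5 and 48.7 CPM (-0.43, SE 0.086, edgeR adjusted p = 0.016). Its groups did not overlap. The summed intestinal epithelial markers, given above, were lower in hairpin 2 too, and their part in these decreases was not tested. Of the genes named after their values were seen, Slc10a2, the bile acid transporter of the ileum, had 1.05, 0.952, 1.57 and 1.36 CPM in control 2 and 0.312, 0.474, 0.108 and 0.498 CPM in hairpin 2 (-1.73, SE 0.328, edgeR adjusted p = 0.013). Il15ra, the receptor chain for interleukin 15, was at -2.35 and the lincRNA Neat1, the scaffold of nuclear paraspeckles, at -0.42, both past the threshold. Also past it were Abhd3 (-1.11), Myl7 (-0.96), Ehbp1l1 (-0.45), Tcirg1 (-0.41), Plcb3 (-0.39), Cers4 (-0.34), Uqcr10 (-0.30) and Eef1g (-0.27).

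**Figure D1:**
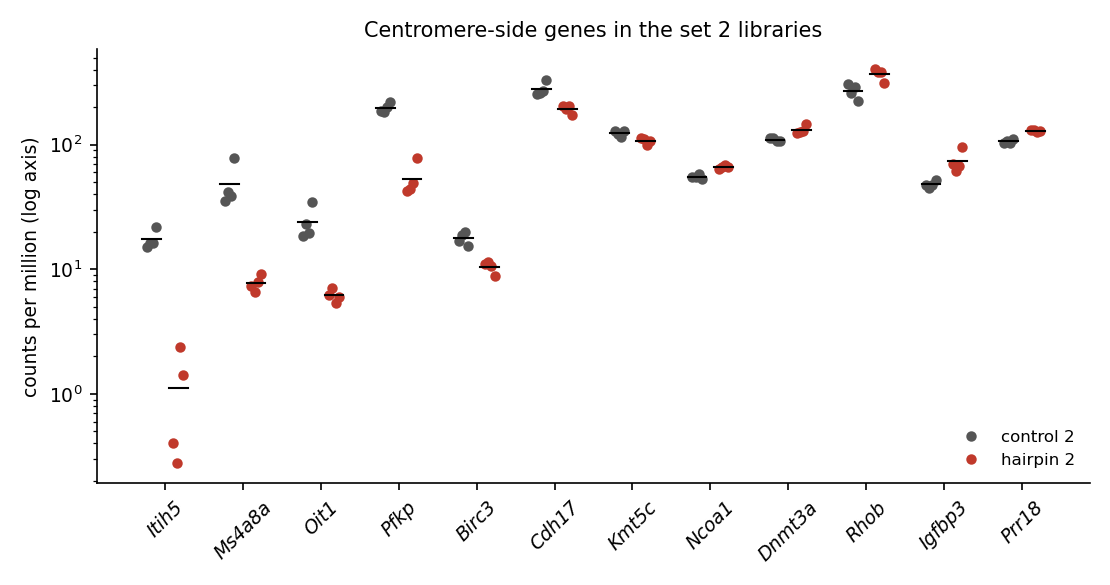
CPM on a log axis for 12 centromere-side genes in the 4 control 2 (grey) and 4 hairpin 2 (red) libraries. Points are libraries and lines are group means. Itih5, Ms4a8a, Oit1, Pfkp, Birc3 and Cdh17 lie lower in every hairpin 2 library and Ncoa1, Dnmt3a, Rhob, Igfbp3 and Prr18 higher, while Kmt5c is lower without passing edgeR's test.

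Most increases were small, with 1 above 2-fold, and 6 of the 12 genes that rose lie on chromosomes 5 and 12. They were 3 of 36 centromere-side genes tested on chromosome 5 and 3 of 39 on chromosome 12. Over all chromosomes 12 of 953 rose (1.26%, background 2.04%). Igfbp3, a binding protein of insulin-like growth factors, had 47.8, 44.7, 47.5 and 52.0 CPM in control 2 and 70.6, 61.7, 66.9 and 96.1 CPM in hairpin 2 (0.62, SE 0.126, edgeR adjusted p = 0.017). Prr18 had 104, 106, 104 and 112 CPM against 131, 130, 127 and 130 CPM (0.29, SE 0.048, edgeR adjusted p = 0.0066). In both genes all hairpin 2 libraries lay above all controls. Rhob, a small GTPase gene on chromosome 12, had 307, 260, 290 and 225 CPM against 405, 380, 380 and 311 CPM (0.45, SE 0.108, edgeR adjusted p = 0.038). Dnmt3a, a de novo DNA methyltransferase gene on the same chromosome, had 113, 113, 107 and 106 CPM against 125, 127, 129 and 147 CPM (0.26, SE 0.063, edgeR adjusted p = 0.036). Ncoa1, a nuclear receptor coactivator gene also on chromosome 12, had 55.5, 54.7, 58.0 and 53.0 CPM against 63.9, 66.1, 68.7 and 66.2 CPM (0.26, SE 0.055, edgeR adjusted p = 0.021). For each of the 3, the highest control 2 library was below the lowest hairpin 2 library. On chromosome 5, Cdk14 was at 0.44, Crot, a peroxisomal carnitine transferase gene, at 0.31 and Gatad1, a chromatin reader gene, at 0.31. The median over all genes of these chromosomes, hairpin 2 minus control 2, was 0.12 for chromosome 5 and 0.13 for chromosome 12. With it removed, the values were 0.32 for Rhob, 0.13 for Dnmt3a, 0.13 for Ncoa1, 0.33 for Cdk14, 0.19 for Crot and 0.19 for Gatad1. Myrf (0.36), Purb (0.32), Selenop (0.41) and, named after its values were seen, Tfpi2 (1.05) complete the 12. With 1 library left out, Dnmt3a and Myrf passed in only 1 of 8 fits, whereas Gatad1 and Prr18 passed in all 8.

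Counts of several named genes are uncertain, because their exons overlap those of another gene and the strand setting of the counting is not given in the sources used here. The other gene is on the opposite strand for Pfkp, Pla2g3, Smtn, Cers4, Plcb3, Selenop, Gatad1, Dnmt3a, Ncoa1, Kmt5b, Sdcbp, Sox17, Cdk6, Gdi2, Ndufa3, Zfp704, Ptger4, Mmp7, Tmem150b and Brsk1. It is on the same strand for Tnni3, Doc2g, Neat1 and Zfp91, and there is one on each strand for Purb, Crot and Dnaaf3.

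In the functional lists of centromere-side genes, the calls are to be read against the background of all genes tested: 0.0% for hairpin 1, and for hairpin 2 4.01% lower and 2.04% higher, or 10.1% and 10.2% with the replicate block. Of 17 genes of the chromatin list tested in both sets, 0 passed for hairpin 1 (median log2 fold change -0.02) and 2 rose with hairpin 2, Dnmt3a and Ncoa1 (median 0.10, against 0.00 over all genes tested). No chromosome median is removed in these values. Dnmt3a and Ncoa1 lie on chromosome 12, whose median over genes averaging at least 5 CPM was itself 0.13 with hairpin 2. With the replicate block, 6 were higher and 1 was lower: Asxl2, Dnmt3a, Ncoa1 and Atad2b on chromosome 12, Rb1cc1 and Kmt5b were higher, and Kmt5c was lower. Of these, Rb1cc1 is known for autophagy and not for chromatin. Atad2b, which encodes a bromodomain protein, was at 0.32 (edgeR adjusted p = 0.098, and 0.0013 with the block). The heterochromatin genes Suv39h2, which methylates histone H3 at the repeats, and Trim28, the corepressor of zinc finger proteins, were at 0.18 and 0.03 for hairpin 2 (edgeR adjusted p = 0.65 and 0.87). Of 15 genes of replication, mitosis and repair, 1 fell with hairpin 2 and 0 passed for hairpin 1 (medians -0.01 and -0.21). The gene that fell was Birc2 (-0.23, edgeR adjusted p = 0.048), which is known as an apoptosis inhibitor and is also in the list of cell death. Mcm10, a replication initiation factor gene, was at -0.22 (edgeR adjusted p = 0.055, and 0.0081 with the block), and Pola2, a subunit of the primase complex, at -0.22 (edgeR adjusted p = 0.18, and 0.017 with the block). Zinc finger protein genes cluster beside the centromere of chromosome 7. Of 29 tested for hairpin 1 and 27 for hairpin 2, 0 passed in either set, with medians of -0.16 and 0.02. With the block 1 passed as higher with hairpin 2, Zfp128 (0.64, edgeR adjusted p = 0.068, and 0.027 with the block), named after its values were seen. The smallest p values for hairpin 2 among those averaging at least 5 CPM belonged to Zfp91 (0.15), Zfp358 (0.16), Zfp704 (0.15) and Zscan22 (-0.15). Of 9 imprinted genes tested in each set 0 passed, and Igf2r, the growth factor receptor gene, was at 0.12 and 0.02. Ddc, which makes dopamine and serotonin from their precursors, was at -0.66 with hairpin 2 (edgeR adjusted p = 0.11, and 0.0072 with the block), and Cobl, an actin nucleator gene, at -0.20 (edgeR adjusted p = 0.14, and 0.0077 with the block). Of 11 genes of the epithelial differentiation list tested in set 2, Itih5 fell, described above as a gene of the hyaluronan matrix. With the block Cobl, which is also in this list, was lower too. The intestinal transcription factor gene Gata6 was at 0.09 and Yap1, the Hippo pathway coactivator gene, at 0.03. The list of glycolysis and of sterol or fatty acid synthesis also holds glutathione transferase genes, which belong to none of these pathways. Of its 11 genes 2 fell, Pfkp and Cpt1a, the latter known for fatty acid breakdown and not synthesis. Idi1 and Cyp51 of sterol synthesis were at -0.45 and -0.02 (edgeR adjusted p = 0.29 and 0.94). With the block 4 were lower and 1 was higher, among them the fatty acid desaturase genes Fads3 (-0.71, edgeR adjusted p = 0.0070) and Fads1 (0.17, edgeR adjusted p = 0.014). Of 14 genes of inflammation and cell death tested in set 2, 3 fell, Birc2, Birc3 and Il15ra, with a list median of -0.19. With the block, 5 of the 14 were lower, Ptger4 (-0.55) and Mmp7 (-0.55) being added (edgeR adjusted p = 0.0044 and 0.037).

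Around Kmt5c itself, within 0.5 Mb, 4 of 32 genes fell with hairpin 2 (background 4.01%) and 0 rose (background 2.04%). All 4 lie between the centromere and Kmt5c. Tmem150b, 33.3 kb away, had 2.36, 2.61, 2.48 and 3.29 CPM in control 2 and 0.357, 0.513, 0.541 and 0.415 CPM in hairpin 2 (-2.56, SE 0.221, edgeR adjusted p = 1.4e-04). Ptprh, a receptor phosphatase gene of intestinal epithelium, had 0.863, 0.651, 0.535 and 0.843 CPM against 0.0446, 0.0789, 0 and 0.166 CPM (-3.21, SE 0.464, edgeR adjusted p = 0.0030). Both were below every control 2 library in each hairpin 2 library. The overlapping pair Tnni3, a cardiac troponin gene, and Dnaaf3, a cilia assembly factor gene, was at -1.21 and -1.04 (edgeR adjusted p = 0.043 and 0.026). The other neighbours did not pass. They include Ppp6r1 (-0.05), Hspbp1 (0.17) and Brsk1 (0.18), which start between Ptprh and Tmem150b, and range from -0.33 for Ssc5d to 0.43 for Tmem238. With the replicate block, 2 of them passed as higher, Hspbp1 (0.17, edgeR adjusted p = 0.043) and Tmem238 (0.42, edgeR adjusted p = 0.032). The median of the 32 was -0.03. For hairpin 1, 27 neighbours were tested, 0 passed, 19 were below 0 and the median was -0.29, with Kmt5c at -0.31. Low values were not confined to this neighbourhood. For genes averaging at least 5 CPM, the hairpin 1 minus control 1 median in log2 CPM was -0.23 over the 45 centromere-side genes of chromosome 7. Over that whole chromosome it was -0.11. Of all centromere-side genes tested for hairpin 1, 47.9% were above 0. Ptprh was at -1.16 with no overlap between the groups (0.526, 0.506 and 0.477 CPM against 1.11, 1.30 and 1.00 CPM in control 1). Elsewhere in the windows, genes that fell with hairpin 2 and start within 100 kb of each other were Pla2g3 and Smtn on chromosome 11, Neat1 and Cdc42ep2 on chromosome 19, and the related Birc2 and Birc3 on chromosome 9.

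**Figure D2:**
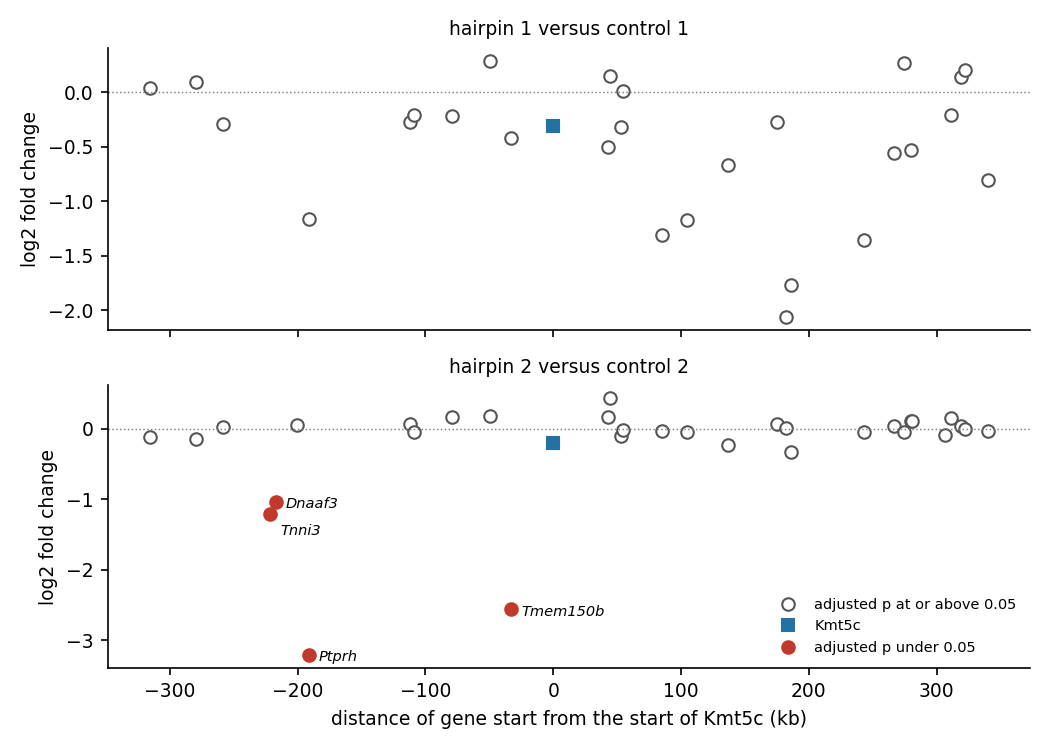
Log2 fold change of each tested gene within 0.5 Mb of Kmt5c against the distance of its start from the start of Kmt5c in kb, for hairpin 1 (top) and hairpin 2 (bottom). Filled red points passed edgeR's test and the blue square is Kmt5c. With hairpin 2, Tnni3, Dnaaf3, Ptprh and Tmem150b lie on the centromere side of Kmt5c between -1.04 and -3.21, and the other genes lie between -0.33 and 0.43.

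The centromere-side genes were also compared as a body with the distal genes of the same chromosomes. The measure was the hairpin minus control difference in log2 CPM of genes averaging at least 5 CPM, with the median of each chromosome removed. It is a description with no test. For hairpin 1 the median over 698 centromere-side genes minus that over 9392 distal genes was 0.0125. Against the control mean, the 3 hairpin 1 libraries were at -0.0334, 0.0161 and 0.0094, and the 3 control 1 libraries at -0.0107, -0.0016 and 0.0148. The groups overlapped, and the value turned to -0.0046 without control 1 replicate 1 and to -0.0152 without hairpin 1 replicate 3. It was 0.0013 without hairpin 1 replicate 2 and 0.0289 without hairpin 1 replicate 1. For hairpin 2 it was 0.0006, over 688 and 9464 genes. The hairpin 2 libraries were at 0.0051, 0.0076, 0.0164 and -0.0005, and the control 2 libraries at 0.0025, 0.001, 0.0025 and -0.0049. Replicates 1 to 3 of hairpin 2 lay above all controls and replicate 4 did not. Between libraries of the same number, a pairing that the labels do not state, hairpin 2 minus control 2 was 0.0026, 0.0066, 0.0139 and 0.0044. With 1 library left out, the hairpin 2 value ran from 0.0003 without control 2 replicate 4 to 0.0093 without control 2 replicate 3. Its sign was not stable: it was -0.0068 as a median over chromosomes and -0.0028 with a limit of 8 Mb.

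**Figure D3:**
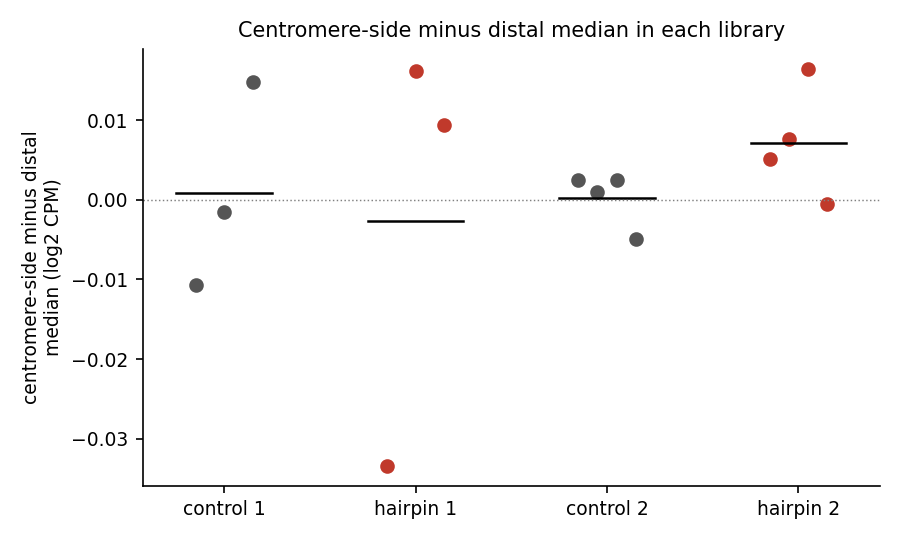
Median over centromere-side genes minus median over distal genes of the deviation from the control mean (log2 CPM, chromosome median removed), 1 point per library, lines at the group means. Set 1 libraries spread from -0.0334 to 0.0161 with overlapping groups, and set 2 libraries from -0.0049 to 0.0164.

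Within the window, hairpin 1 medians varied with distance from the centromeric end. The median was -0.03 for the 233 genes that start under 5 Mb, -0.02 from 5 to 7 Mb, 0.05 from 7 to 9 Mb, 0.07 from 9 to 11 Mb and 0.12 for the 97 genes from 11 to 13 Mb. Just outside, from 13 to 20 Mb, it was 0.05. Far from the window it was -0.03 for genes that start at 100 Mb and over, and -0.03 in the last 10 Mb of the chromosomes. The hairpin 1 libraries were at -0.07, -0.02 and 0.01 under 5 Mb and at 0.05, 0.19 and 0.06 from 11 to 13 Mb, so each was higher in the outer bin. All 3 were set against the same control mean, and the control libraries were not split by bin, so the spread between controls is not known here. Between these bins single libraries did not rise at each step: replicate 2 was at -0.08 from 5 to 7 Mb and replicate 3 at -0.02 from 9 to 11 Mb. Without chromosome 19 the bins were at -0.02, 0.03, 0.07, 0.12 and 0.12. For hairpin 2 the bins were at -0.02, 0.02, 0.00, 0.01 and 0.02 from the end outward, and at 0.01 from 13 to 20 Mb. Whether the hairpins differ in this was not tested.

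**Figure D4:**
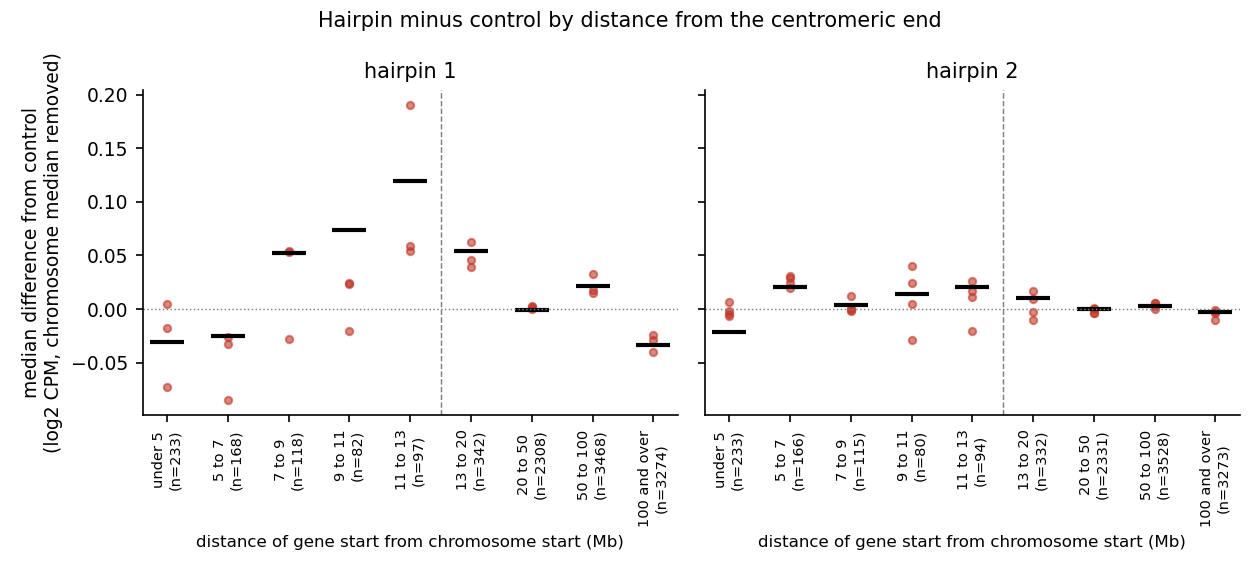
Median hairpin minus control difference (black lines, log2 CPM with chromosome medians removed) and the same for each hairpin library against the control mean (red points), by distance of the gene start from the start of the chromosome in Mb. The dashed line marks the 13 Mb limit and n is the number of genes. Hairpin 1 runs from -0.03 under 5 Mb to 0.12 at 11 to 13 Mb, and hairpin 2 stays between -0.02 and 0.02.

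Chromosome by chromosome, the centromere-side median was above the distal one on 12 chromosomes and below it on 7 for hairpin 1, and above on 9 and below on 10 for hairpin 2. For hairpin 1 the difference ran from -0.20 on chromosome 19 to 0.34 on chromosome 4. On chromosome 4 the 3 hairpin 1 libraries (0.12, 0.36 and 0.26) lay above the controls, as they did on chromosome 5 (0.38, 0.43 and 0.28), and on chromosome 16 they lay below (-0.14, -0.17 and -0.18). For hairpin 2 the 4 libraries lay above the controls on chromosomes 12 and 17 and below them on chromosome 13. No chromosome was without overlap for both hairpins.

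Chromosome 13 had the lowest value for hairpin 2, -0.16, and there the raised median was that of the genes outside the window. Over 344 distal genes of chromosome 13 the hairpin 2 minus control 2 median, with no chromosome median removed, was 0.20, while over the 20 centromere-side genes it was 0.04. The hairpin 2 libraries were at 0.005, 0.0277, 0.1044 and -0.0364 below 13 Mb, and at 0.2062, 0.2175, 0.2246 and 0.1789 over the 40 genes from 13 to 30 Mb. Of those 40 genes 37 were above 0, against 11 of the 20 below 13 Mb. The step lay near the limit: the median was -0.02 for 11 genes under 8 Mb, 0.09 for 9 genes from 8 to 13 Mb, 0.22 for 12 genes from 13 to 18 Mb and 0.21 for 28 genes from 18 to 30 Mb. The first 3 of these bins hold fewer than 20 genes each. On chromosomes 5 and 12, whose medians were also raised, the centromere-side genes were raised with the rest. Chromosome 5 was at 0.15 below 13 Mb (21 of 24 genes above 0) and 0.11 from 30 Mb on. Chromosome 12 was at 0.19 below 13 Mb (24 of 26 genes above 0) and 0.13 from 30 Mb on. DNA copy number of the clones was not measured here, and its part in these chromosome medians, and in the calls on chromosomes 5 and 12, was not tested. These positions were examined after the chromosome values were seen.

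**Figure D5:**
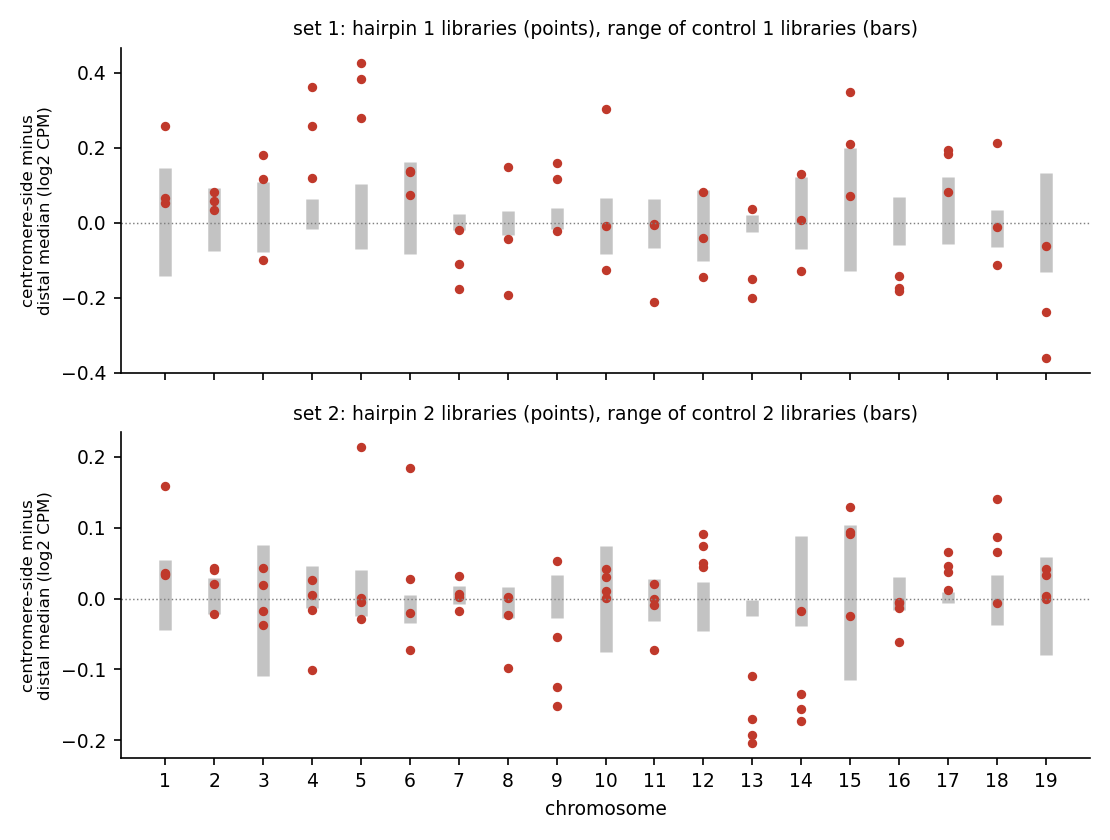
Centromere-side minus distal median (log2 CPM difference from the control mean) for each chromosome, with 1 red point per hairpin library and a grey bar for the range of the control libraries, set 1 above and set 2 below. In set 2 chromosome 13 lies between -0.20 and -0.11 in all 4 hairpin 2 libraries, below the controls, and chromosome 12 lies above them.

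The effects of both hairpins were compared by the interaction term of edgeR's model of all 14 libraries. It called 5 of 1013 centromere-side genes (0.494%, background 0.412%). Cdh17 was at 256, 278 and 182 CPM in control 1 and 482, 331 and 359 CPM in hairpin 1, the opposite direction to its fall with hairpin 2 (hairpin 2 effect minus hairpin 1 effect -1.25, edgeR adjusted p = 0.041). Abhd3 (-2.50, adjusted p = 0.036) and Myrf (1.61, adjusted p = 0.018) were also on opposite sides of 0 (edgeR). Their set 1 side rests on low levels, with control 1 and hairpin 1 means of 0.41 and 1.09 CPM for Abhd3 and 0.86 and 0.36 CPM for Myrf. Il15ra (-2.59, adjusted p = 0.044) fell with hairpin 2 and was at 0.24 for hairpin 1, and Rcor2 (1.28, adjusted p = 0.011) was low in hairpin 1 and at 0.02 for hairpin 2 (edgeR). Among the 835 centromere-side genes tested in both sets, 58 had an unadjusted p under 0.05 for hairpin 1 and 34 were called for hairpin 2. The 7 in both lists (12.1% of the first and 20.6% of the second) were Cdh17, Ptprh, Myl7, Abhd3, Tcirg1, Cdc42ep2 and Myrf, and 4 of the 7 had the same sign, all lower. Over all genes tested in both sets, 63 were in both lists (9.5% and 8.51%), 43 with the same sign. Of the 4 lower genes, Myl7 had 4.13, 4.61, 4.77 and 4.17 CPM in control 2 and 2.27, 1.97, 2.49 and 2.49 CPM in hairpin 2. Cdc42ep2 had 15.6, 21.6 and 6.50 CPM in control 1 and 3.68, 5.67 and 5.30 CPM in hairpin 1. Within each set both genes were lower in every hairpin library than in any control library, but with hairpin 1 neither passed edgeR's test.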

How the data were processed

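Stranded libraries of poly(A) RNA were made, per the labels' protocols. The authors deposited 1 table of whole-number gene counts for each library. Per the submitters' processing notes, the tools were bcl2fastq 2.20, FastQC, STAR, featureCounts and DESeq2, with GRCm38 as the build. Settings and the counting strand were not stated in the sources used here. The set 2 tables list 17490 genes and those of set 1 list 55421, by a filter not stated either. Of 4000 genes annotated below 13 Mb, 3980 are listed in set 1 and 1164 in set 2.

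Hairpin and control were compared within a set by the quasi-likelihood test of edgeR 4.0.16 in R 4.3.3, with TMM scaling and filterByExpr. P-values were Benjamini-Hochberg adjusted over all genes tested, with a threshold of 0.05. CPM used TMM-scaled totals, and medians used log2 CPM with a prior count of 2. A model of 4 groups gave the difference between hairpins. Other versions were DESeq2 1.42.0, limma 3.58.1 (a part of edgeR's code), pandas 2.3.3 under Python 3.11.15, and matplotlib 3.10.9. Only the main edgeR fit of each set was also run on simulated counts, and the other fits were not.

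Named genes were Kmt5c and Kmt5b, the first gene of each chromosome, up to 10 called genes per direction that averaged at least 5 CPM and had no overlap between groups (for hairpin 1, the 5 per direction with the smallest p), and up to 4 per functional list. Values of 1 of these genes and of 1 marker are not reported here. Others are said to be named after their values were seen, as were the neighbours of Kmt5c, the pairs within 100 kb, Asxl2, Rb1cc1, Suv39h2, Trim28, Zfp128, Igf2r, Gata6, Yap1, Idi1 and Cyp51. The genes and lists were chosen with earlier results of these data known.

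For the pairing check, deviations from group means were correlated between hairpin and control libraries of 1 number. Set 2 gave 0.507, 0.363, 0.552 and 0.772, each above 0.1. That evidence is the data and not a label. On it, set 2 numbers were treated as pairs in the replicate block and in the differences between libraries of 1 number. The main fit had no block, so its calls and adjusted p-values are unpaired. Libraries of other numbers among replicates 1 to 3 gave 0.255 to 0.393, all above 0.1 as well and in part above the 0.363 of the replicate 2 pair. The check therefore cannot tell whether numbers 1 to 3 are pairs, and mainly shows that the replicate 4 libraries share a difference. Results with the block rest on this unproven pairing. Set 1 gave 0.306, 0.0022 and 0.350, and its numbers were not treated as pairs. Alternatives were DESeq2's size factors and Wald test, no filter on low counts, the block, all 14 libraries, leaving out each library, limits of 8 and 20 Mb, at least 1 CPM, a prior count of 0.5 and leaving out chromosomes.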

Additional observations from a re-analysis of the deposited data

Results flagged for a closer look

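In groups of 4 libraries, 1 library lay far from the other 3 in several centromere-side genes, by the gap to its neighbour relative to the range of the group. Chance alone picks out about 1 in 20 groups, and 222 were checked. Most of the libraries picked out were replicate 4 of control 2 or of hairpin 2. The lowest value of hairpin 2 replicate 4 was seen for Sox17 35 CPM (others 70.5 to 72.6), Fam171a1 55.8 CPM (others 94.2 to 101), Samd9l 2.41 CPM (others 7.54 to 8.22), Snx9 82.1 CPM (others 97 to 99.5), Smtn 11.4 CPM (others 18.2 to 19.1), Incenp 106 CPM (others 132 to 136), Ddc 2.74 CPM (others 6.06 to 6.43) and U2af2 147 CPM (others 170 to 174). The lowest value of control 2 replicate 4 was seen for Fam171a1 59.9 CPM (others 86.9 to 89.6), Samd9l 3.97 CPM (others 7.47 to 7.94) and Snx9 86.3 CPM (others 97.8 to 98.1). The highest value of hairpin 2 replicate 4 was seen for Tmem68 42.1 CPM (others 30.4 to 31.7), Gm21926 24.7 CPM (others 15.8 to 16.8), Doc2g 9.3 CPM (others 5.35 to 5.88), Fzd1 84.3 CPM (others 57.9 to 58.6) and Crot 62.5 CPM (others 54.9 to 55.6). The highest value of control 2 replicate 4 was seen for Gm21926 22.4 CPM (others 17.2 to 17.8), Fzd1 57.5 CPM (others 49.2 to 50.6), Cdh17 328 CPM (others 256 to 268), Ms4a8a 78.8 CPM (others 35.5 to 41.7), Pon3 15.8 CPM (others 10.6 to 11.4), Ehbp1l1 38.8 CPM (others 31 to 32.1) and Neat1 480 CPM (others 382 to 399). The highest value of hairpin 2 replicate 3 was seen for Birc2 35.5 CPM (others 33.9 to 34.1) and Ehbp1l1 28.1 CPM (others 23.2 to 23.8). The highest value of hairpin 2 replicate 2 was seen for Mcm10 53.7 CPM (others 51.8 to 51.9) and Cers4 52.7 CPM (others 47 to 47.7).

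The effects of the hairpins differed by edgeR's interaction term, as hairpin 2 effect minus hairpin 1 effect on the log2 scale, for Abhd3 (-2.50), Il15ra (-2.59), Rcor2 (1.28), Cdh17 (-1.25) and Myrf (1.61). Levels of Cdh17, and of Rcor2 in set 1, are given in the results. Control 1 and hairpin 1 means were 0.41 and 1.09 CPM for Abhd3, 0.86 and 0.36 CPM for Myrf, and 2.56 and 3.02 CPM for Il15ra. Control 2 and hairpin 2 means were 2.17 and 1.01 CPM for Abhd3, 21.4 and 27.4 CPM for Myrf, and 1.29 and 0.25 CPM for Il15ra. For Rcor2 they were 152.0 and 154.5 CPM.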

How the results depend on the processing

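For hairpin 1, 0 centromere-side genes were called in each edgeR fit of set 1, including the replicate block, no filter and every leave-one-out fit (0 to 0), but 2 by DESeq2's Wald test and 18 by the model of all 14 libraries. For hairpin 2, 39 of 953 tested were called. The count was 64 by DESeq2's Wald test, 5 by the model of all 14 libraries and 158 with the replicate block. It was 134 without both replicate 4 libraries (added after the data were seen). Another limit changes how many genes of the same fit are counted. It gave 27 of 604 tested with 8 Mb and 69 of 1434 tested with 20 Mb, against a background of 6.05%. Leaving out 1 library gave 21 to 66. The hairpin 1 median difference of 0.0125 became -0.0299 with no chromosome median removed, -0.0267 with a limit of 8 Mb and 0.0422 without chromosome 19 (added after the data were seen), and -0.0152 to 0.0289 with 1 library left out. The hairpin 2 value of 0.0006 became -0.0068 as a median over chromosomes and -0.0028 with a limit of 8 Mb, and 0.0003 to 0.0093 with 1 library left out. Kmt5b with hairpin 1 reversed without control 1 replicate 3 (0.144), hairpin 1 replicate 2 (0.0287) or hairpin 1 replicate 3 (0.151), and was -0.447 without hairpin 1 replicate 1. The cause of these shifts was not tested. Of the values of single named genes under alternatives, 548 kept their side of the threshold, 142 lost a call, 13 gained one and 3 reversed. Of the 39 called genes, 14 passed in all 8 leave-one-out fits, and Myrf, Tnni3, Birc2 and Dnmt3a passed in 1. Hairpin 2 replicate 3 has the lowest total count, 9272134, and genes below 1 CPM such as Ptprh rest on few reads there.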
